A study of Mus musculus with 4 samples.

Results

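The 8 adipogenic transcription factors, Pparg, Cebpa, Cebpb, Cebpd, Zfp423, Ebf1, Ebf2 and Prdm16, were followed across the cells that make up the stromal vascular fraction (SVF) of brown adipose tissue (BAT) in mice. They were chosen by gene symbol, with earlier results of these data known, and made up 8 of the 32285 genes counted. Single-cell RNA sequencing had been performed on 4 libraries of C57BL6/J background: wild-type mice of 10 weeks (WT), obese db/db mice of 8 weeks (db/db 8w) and of 16 weeks (db/db 16w), and mice on a high-fat diet (HFD), for which the label gave 10 weeks. The db/db mice carry a mutation of the leptin receptor gene in every cell, the stromal and immune cells read here included, whereas the HFD mice were wild type. The methods had the diet begin at the age that the HFD label gives, and the age of these mice was therefore not settled. Each library came from the SVF of several mice, pooled and then sorted, so that no value belongs to 1 mouse. As the 4 groups held 1 library each, no difference was tested, and the 95% intervals reflect counting error alone, leaving out how mice and preparations vary.

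Fat cells arise from fibroblast-like stromal precursors through a relay of transcription factors. C/EBPβ (Cebpb) and C/EBPδ (Cebpd) are induced first, by hormones and other acute stimuli, and switch on PPARγ (Pparg) and C/EBPα (Cebpa), which maintain each other and drive the genes of lipid uptake and storage. Zfp423, Ebf1 and Ebf2 mark and commit the precursors before this relay starts, Ebf2 being known as a factor of the brown lineage, and Prdm16 is a cofactor that gives brown rather than white fat its identity. Several of the factors also work elsewhere: C/EBPs in myeloid cells, Ebf1 in B cells, and Pparg in macrophages and vessels.

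The genes are protein coding and were placed on GRCm38 with the GENCODE vM21 annotation. Pparg lies at chr6:115360951-115490399, Cebpa at chr7:35119293-35121928, Cebpb at chr2:167688915-167690418, Cebpd at chr16:15887286-15891031, Ebf1 at chr11:44617317-45008091 and Ebf2 at chr14:67233292-67430918, all on the plus strand. Zfp423 at chr8:87661810-87959595 and Prdm16 at chr4:154316125-154636873 lie on the minus strand. Tmem189 overlaps Cebpb and Spidr overlaps Cebpd on the opposite strand, and how reads were assigned by strand was not given in the sources used here. These neighbours held 1610 and 1122 UMIs in the stromal cells of the 4 libraries together, against 478 to 17845 UMIs of Cebpb and 1472 to 32771 of Cebpd in a single library.

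The promoters of 6 of the 8 genes were found in the RefSeq table (GRCm38.p6), in 10 windows of 250 bases before a start site. Both strands were searched for TGACG, the core letters of the cAMP response element, and for TTNNGNAA, a loose form of the letters that C/EBP proteins bind. The first stands for the acute signals that induce Cebpb and the second for the step from C/EBPs to Pparg, so the Cebpb window (chr2:167688665-167688914, plus strand) and the window of the most downstream of 3 Pparg start sites (chr6:115421816-115422065, plus strand) are shown, with the matching letters in capitals.
Cebpb: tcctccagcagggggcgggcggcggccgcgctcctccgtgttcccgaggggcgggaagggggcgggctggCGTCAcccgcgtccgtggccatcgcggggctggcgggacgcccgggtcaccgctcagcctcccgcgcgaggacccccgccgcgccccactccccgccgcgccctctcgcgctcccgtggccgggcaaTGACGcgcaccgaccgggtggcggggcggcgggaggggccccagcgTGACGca
Pparg: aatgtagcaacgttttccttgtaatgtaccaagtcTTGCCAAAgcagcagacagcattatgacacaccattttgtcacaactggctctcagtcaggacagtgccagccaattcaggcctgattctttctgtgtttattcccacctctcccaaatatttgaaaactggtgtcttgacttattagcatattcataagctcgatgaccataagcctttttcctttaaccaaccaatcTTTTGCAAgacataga
The Cebpb window held TGACG at 3 places, beginning 180, 53 and 7 bases before the start, and no TTNNGNAA. The Pparg window held TTNNGNAA at 2 places, 215 and 16 bases before the start, while the windows of the other 2 Pparg starts held neither motif. Among all 32851 windows of this length, 17.77% held TGACG and 36.85% held TTNNGNAA. Single TTNNGNAA matches were also found in both Zfp423 windows, in 1 of 2 Ebf1 windows and in the Prdm16 window, and the Cebpa window held neither motif. A match describes letters only, and the 3′ reads do not tell which start site was used.

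The libraries held 6517 to 18306 barcodes and 28504069 to 61828295 UMIs. The quality limits kept from 63.6% to 89.5% of barcodes in the other libraries but 31.3% in HFD, whose kept cells had the highest median mitochondrial share (10.5%, against 0.799% to 5.94%). Cells were assigned to a lineage by raw UMIs of marker panels that include none of the 8 genes, which left 12.8% to 22.3% of cells unassigned. Pairs of libraries shared 7 to 25 barcodes, at most 0.429% of a library. The methods name male mice, but Xist, the RNA of the inactive X chromosome of females, was at 450.3 CPM (UMIs divided by all UMIs of the class, scaled as counts per 1e6) in db/db 16w stromal cells and at 0.172 to 0.491 CPM in the others, so the db/db 16w library goes against this description. All values of that library below carry this limit, and no second db/db 16w library was analysed here.

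Stromal cells, which hold the fat precursors, numbered 4232 in WT, 5975 in db/db 8w, 1489 in HFD and 1143 in db/db 16w, and all 9 stromal markers were detected in each library. Their composition differed. Cells gated on Pi16, Dpp4 and allied genes, the less committed progenitor pool, made up 65% of stromal cells in WT, but 26.7% in db/db 8w, 10.5% in HFD and 2.1% in db/db 16w. Cells gated on Col15a1, Col4a1 and Col4a2, the preadipocyte-type pool, made up 10.4%, 38.6%, 73.3% and 84.9% in the same order. Levels over all stromal cells therefore mix the level within a pool with the share of each pool, and both are given separately further on.

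Pparg was higher in the stromal cells of all 3 obese libraries. It held 6.94 CPM in WT (242 UMIs), 20.8 in db/db 8w (580 UMIs), 32.8 in db/db 16w (142 UMIs) and 44.1 in HFD (359 UMIs). The order was thus WT, db/db 8w, db/db 16w, HFD, and the log2 ratios to WT were 1.59 (95% interval 1.37 to 1.81), 2.24 (1.93 to 2.55) and 2.67 (2.43 to 2.91), or 3.0-, 4.73- and 6.36-fold. The neighbours db/db 8w and db/db 16w differed by 0.66 (0.38 to 0.92). After each cell was thinned to 1000 UMIs, 0.528%, 1.96%, 3.54% and 3.90% of stromal cells held a Pparg UMI, against 0.909%, 2.64%, 2.0% and 5.35% of monocytes and macrophages, cells known to use the gene. The median depths were 7116, 3650, 2850 and 5040 UMIs per stromal cell and 6340, 5595, 5907 and 5808 per mono/mac cell. Endothelial cells held far more Pparg, and the 8 endothelial markers, all detected in stromal cells of every library, summed to more there in the obese libraries, from 2.58 CPM in WT to 13.4, 35.4 and 156. The Pparg that endothelial and mono/mac RNA would carry into stromal barcodes was estimated from genes the gates did not use at 0.111, 3.21, 3.58 and 8.48 CPM, and with this taken off the log2 ratios were 1.37, 2.10 and 2.38. The WT estimate holds the mono/mac part alone, since WT held too few endothelial cells (18) to serve as a donor, so the correction was not alike in WT and the obese libraries. Adipocytes were not a donor, so RNA from them was not taken off in any library.

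Cebpa, the partner of PPARγ in the late step, did not follow it. Its stromal level was 23.0 CPM in WT (801 UMIs), 23.1 in db/db 8w (644 UMIs), 23.4 in db/db 16w (101 UMIs) and 27.5 in HFD (224 UMIs). The 4 libraries could barely be separated, with log2 ratios to WT of 0.01 (−0.14 to 0.16), 0.02 (−0.29 to 0.32) and 0.26 (0.04 to 0.48). A change of 2-fold in either direction lay outside all 3 counting intervals. With the level of each stromal subset weighted by its share of WT stromal cells, here called the WT mix, the ratios were −0.69, −0.88 and 0.01. Only subsets with at least 50 cells in both libraries entered the WT mix. For db/db 16w it left out the Pi16/Dpp4 pool and covered 30.9% of WT stromal cells, so that value is not adjusted for the whole composition.

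The early factors were lower in obese stromal cells. Cebpb was at 512 CPM in WT (17845 UMIs), 323 in db/db 8w (9000 UMIs), 110.5 in db/db 16w (478 UMIs) and 160 in HFD (1299 UMIs). The db/db 16w level was the lowest, 4.63-fold under WT (log2 ratio −2.21, −2.34 to −2.08), followed by HFD (3.21-fold, −1.68, −1.76 to −1.60) and db/db 8w (1.58-fold, −0.66, −0.70 to −0.63). The share of cells with a Cebpb UMI at 1000 UMIs had the same order, from 27.8% in WT to 21.9% in db/db 8w, 14.3% in HFD and 7.85% in db/db 16w. Cebpd was at 940 CPM in WT (32771 UMIs), 506 in db/db 8w (14093 UMIs), 340 in db/db 16w (1472 UMIs) and 299 in HFD (2437 UMIs). Its log2 ratios were −0.89 (−0.92 to −0.86), −1.46 (−1.54 to −1.39) and −1.65 (−1.71 to −1.59), so that here HFD and not db/db 16w was the lowest. The genes that acute stress and tissue digestion induce moved with them: the sum of 12 immediate-early and heat-shock genes was 18736 CPM in WT stromal cells, 13691 in db/db 8w, 12155 in HFD and 6009 in db/db 16w.

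**Figure D1:**
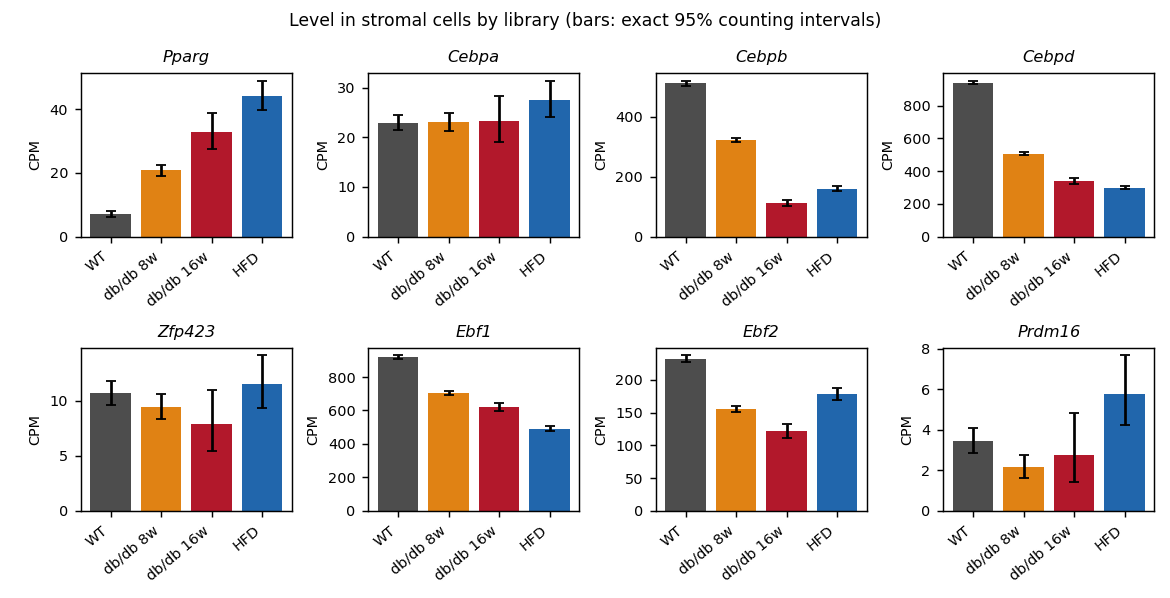
CPM of each gene in all stromal cells of the 4 libraries, with exact Poisson 95% intervals as bars. Pparg is lowest in WT (6.94 CPM) and highest in HFD (44.1 CPM), Cebpb and Cebpd are highest in WT (512 and 940 CPM), and Cebpa stays between 23.0 and 27.5 CPM.

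Of the commitment factors, Ebf1 and Ebf2 were lower in obese stromal cells and Zfp423 could not be told apart between libraries. Ebf1 held 920 CPM in WT (32078 UMIs), 704 in db/db 8w (19621 UMIs), 619 in db/db 16w (2676 UMIs) and 490 in HFD (3985 UMIs), with log2 ratios of −0.38 (−0.41 to −0.36), −0.57 (−0.63 to −0.51) and −0.91 (−0.96 to −0.86). At 1000 UMIs it was seen in 60.2%, 49.2%, 48.6% and 37.4% of stromal cells. Ebf2 held 232.5 CPM in WT (8110 UMIs), 155 in db/db 8w (4319 UMIs), 122 in db/db 16w (528 UMIs) and 178 in HFD (1449 UMIs), with ratios of −0.58 (−0.64 to −0.53), −0.93 (−1.06 to −0.80) and −0.39 (−0.47 to −0.30). Both genes were thus lower in each obese library, by less than 2-fold, but this rested on the settings used. Ebf1 in HFD passed 2-fold with median-of-ratios size factors (−1.11) and with the mean of each cell's CPM (−1.16), whereas with the WT mix Ebf2 in HFD turned to 0.30 and Ebf1 came to −0.32 in the same library, −0.07 in db/db 8w and 0.00 in db/db 16w. The db/db 16w value leaves out the Pi16/Dpp4 pool. Ebf2 was nearly absent outside the stroma, with a UMI in 0 to 0.454% of mono/mac cells at 1000 UMIs against 13.2% to 22.5% of stromal cells. Zfp423 held 10.7 CPM in WT (373 UMIs), 9.44 in db/db 8w (263 UMIs), 7.86 in db/db 16w (34 UMIs) and 11.55 in HFD (94 UMIs), and the intervals of its ratios, −0.18 (−0.41 to 0.05), −0.44 (−1.0 to 0.06) and 0.11 (−0.23 to 0.44), all held 0. No mono/mac cell held a Zfp423 UMI at 1000 UMIs in any library, which allows a share of 0.141% to 0.418% by the exact upper limits.

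Prdm16 was rare in the stroma, at 3.44 CPM in WT (120 UMIs), 2.15 in db/db 8w (60 UMIs), 2.78 in db/db 16w (12 UMIs) and 5.77 in HFD (47 UMIs). Its log2 ratio to WT was 0.75 (0.23 to 1.24) in HFD, against −0.68 (−1.15 to −0.22) in db/db 8w, with −0.31 (−1.30 to 0.55) in db/db 16w. The direction thus differed between the db/db 8w and HFD libraries, on 60 and 47 UMIs. Each ratio passed 2-fold under 1 alternative, −1.26 in db/db 8w with the mean of each cell's CPM, and −1.66 in db/db 16w and 1.11 in HFD with the WT mix of stromal subsets. For db/db 16w the WT mix left out the Pi16/Dpp4 pool, and all 12 Prdm16 UMIs of db/db 16w stromal cells lay in Col15a1/Col4a1 cells.

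All 8 genes passed the filter of 20 UMIs over the libraries compared. In db/db 8w stromal cells 1 of 8 was at least 2-fold higher than WT (Pparg) and 0 were at least 2-fold lower, where 9.39% and 4.41% of all 14553 genes were. In db/db 16w 1 was higher and 2 were lower (Cebpb and Cebpd), beside 14.8% and 18.1% of all genes. In HFD the counts were again 1 and 2, for the same genes, beside 15.7% and 9.34%. A count of 1 or 2 in 8 is near these backgrounds, so the number of calls says nothing particular about these genes. The 3 ratios share the WT library, and the median log2 ratio of all genes was 0.03, −0.07 and 0.10.

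Within a library, Pparg differed between the 2 main stromal pools in one direction, and Ebf1 and Ebf2 in the other. Pparg was higher in Col15a1/Col4a1 than in Pi16/Dpp4 cells in each of the 3 libraries with at least 50 cells of both: 24.8 against 3.22 CPM in WT, 33.8 against 4.99 in db/db 8w and 50.8 against 8.55 in HFD (6 UMIs). The log2 differences were 2.94 (2.48 to 3.42), 2.76 (2.28 to 3.29) and 2.57 (1.43 to 4.03). Cebpa, the other late factor, was higher by 1.52 (1.24 to 1.79) in WT and 2.21 (1.79 to 2.65) in db/db 8w, but by 0.44 (−0.32 to 1.31) on 15 Pi16/Dpp4 UMIs in HFD. The commitment factors ran the other way. Ebf2 differed by −0.86, −0.99 and −1.13, Ebf1 by −0.39, −0.84 and −1.0, and Zfp423 by −0.97, −0.86 and −0.94, in WT, db/db 8w and HFD, and only the Zfp423 interval in HFD (−1.79 to 0.01) held 0. The early factors had no common direction: Cebpb differed by −0.43 (−0.52 to −0.34), 0.21 (0.13 to 0.30) and 0.19 (−0.11 to 0.51), and Cebpd by −0.04, 0.03 and −0.49. Prdm16 differed by −0.23, −0.26 and −0.57 on 6 to 77 UMIs, all intervals holding 0. By the 2-fold rule in all 3 libraries, 1 of 8 genes (Pparg) was higher and 0 were lower, beside 3.30% and 3.49% of 11155 genes. The db/db 16w library held 24 Pi16/Dpp4 cells and was not used here.

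The smaller pools added little for most genes. In the 84 WT cells gated on Has1, Ptx3 and Tnfaip6, matrix and inflammatory genes, Cebpb was at 1355 CPM and Cebpd at 2333 CPM, above the other pools of that library, and the 27 such cells of db/db 8w gave 1576 and 2306 CPM. Cells gated on Cilp, Eln and Apod held Ebf1 at 344 CPM in WT (89 cells) and 462.5 CPM in db/db 8w (352 cells), under both main pools of these libraries.

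**Figure D2:**
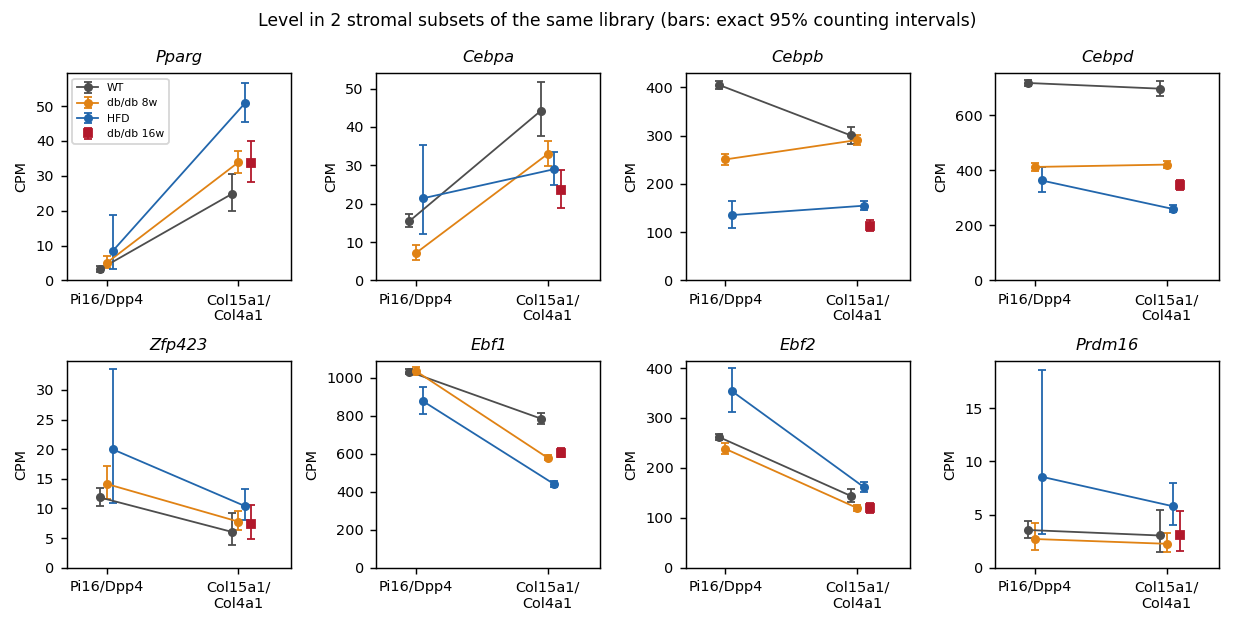
CPM of each gene in Pi16/Dpp4 and Col15a1/Col4a1 stromal cells by library, with exact Poisson 95% intervals as bars; db/db 16w is a single square, since its 24 Pi16/Dpp4 cells are not drawn. Pparg lies higher in Col15a1/Col4a1 cells (24.8 against 3.22 CPM in WT), and Ebf2 lies lower (144 against 262 CPM in WT).

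Within a single pool the Pparg difference was smaller. In Col15a1/Col4a1 cells Pparg was at 24.8 CPM in WT (90 UMIs), 33.8 in db/db 8w (422 UMIs), 33.6 in db/db 16w (133 UMIs) and 50.8 in HFD (317 UMIs), and the log2 ratios to WT shrank to 0.45 (0.12 to 0.80), 0.44 (0.04 to 0.84) and 1.04 (0.69 to 1.39). Only HFD passed 2-fold in this pool, and with the estimated carry-over taken off the ratios were 0.36, 0.28 and 0.78, so that none did. In Pi16/Dpp4 cells they were 0.63 (0.02 to 1.23) for db/db 8w and 1.41 (−0.08 to 2.60) for HFD, on 37 and 6 UMIs. The estimated carry-over into Pi16/Dpp4 cells was 3.72 of 4.99 CPM in db/db 8w and 8.50 of 8.55 CPM in HFD, and no difference of Pparg is read in that pool. With the WT mix, which covered 98.0%, 30.9% and 95.9% of WT stromal cells, the ratios of all stromal cells became 0.64, 1.27 and 1.37, the first no longer past 2-fold. Carry-over was not taken off these weighted values. Cebpa was lower in the Col15a1/Col4a1 cells of the obese libraries, at 44.3 CPM in WT and 33.0, 23.5 and 29.0 in the obese libraries and log2 ratios of −0.43 (−0.69 to −0.15), −0.91 (−1.30 to −0.54) and −0.61 (−0.93 to −0.30). In Pi16/Dpp4 cells Cebpa was 2.16-fold lower in db/db 8w (−1.11, −1.56 to −0.69), while its HFD ratio there was 0.47 (−0.38 to 1.21) on 15 UMIs.

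The early factors stayed low in db/db 16w and HFD Col15a1/Col4a1 cells. Cebpb was at 301 CPM in WT and 291 in db/db 8w, 155 in HFD and 113 in db/db 16w. Its log2 ratios were −0.05 (−0.15 to 0.05) for db/db 8w, −1.41 (−1.57 to −1.25) for db/db 16w and −0.96 (−1.08 to −0.83) for HFD. Cebpd was at 697 CPM in WT and 421, 347 and 259.5 in the order of these ratios, and its own were −0.73, −1.01 and −1.43. For Cebpb, the db/db 8w difference seen over all stromal cells was not found in this pool, while it was −0.69 in Pi16/Dpp4 cells. Ebf1 had ratios of −0.44, −0.37 and −0.84. Ebf2 was within a factor of 1.21 of WT in all 3, at −0.27 (−0.41 to −0.12), −0.27 (−0.46 to −0.09) and 0.17 (0.01 to 0.32), and Zfp423 was at 0.36, 0.28 and 0.78, the last with an interval of 0.07 to 1.55. Prdm16 was at −0.43, 0.00 and 0.93 on 11 to 36 UMIs, all intervals holding 0. The 2-fold rule called 0 of 8 genes higher and 0 lower in db/db 8w, beside 9.46% and 3.80% of all genes, 0 higher and 2 lower (Cebpb and Cebpd) in db/db 16w, beside 15.9% and 12.9%, and 1 higher (Pparg) and 1 lower (Cebpd) in HFD, beside 15.8% and 5.45%. The Cebpd value in db/db 16w lay just past the limit, at 2.01-fold, and the Pparg call in HFD was lost with carry-over taken off (0.78).

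**Figure D3:**
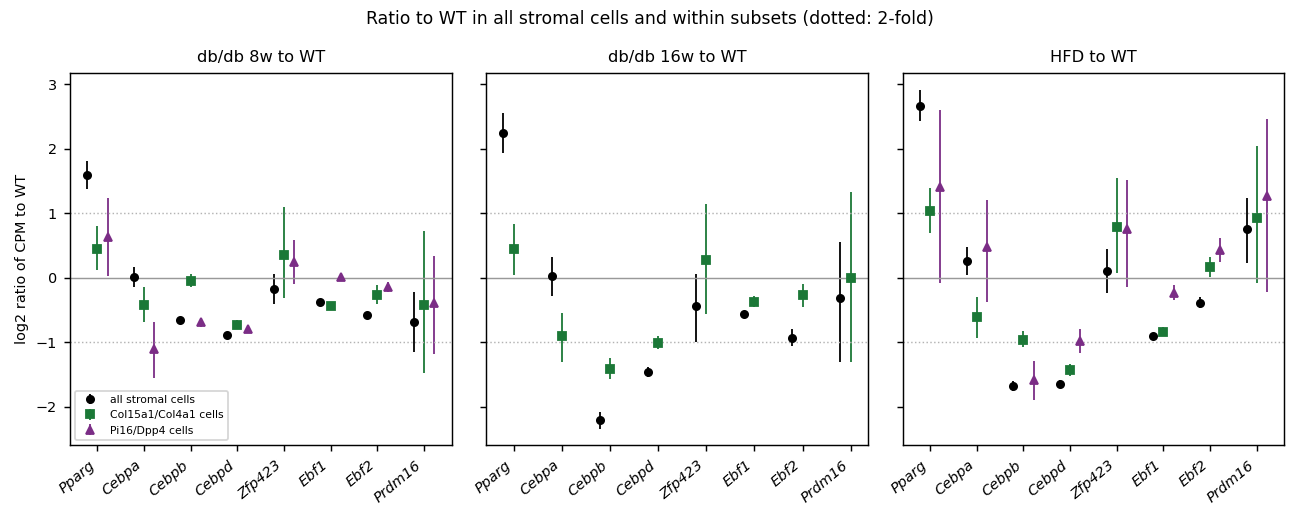
Log2 ratio of each gene to WT in all stromal cells (circles), Col15a1/Col4a1 cells (squares) and Pi16/Dpp4 cells (triangles, not drawn for db/db 16w, which held 24), with 1 panel per obese library and exact conditional binomial 95% intervals as bars. Pparg lies at 1.59 to 2.67 in all stromal cells but at 0.44 to 1.04 in Col15a1/Col4a1 cells, whereas Cebpd lies under 0 at every point drawn.

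Since Cebpb and Cebpd are themselves induced by acute signals, Col15a1/Col4a1 cells were grouped by the share of their UMIs that came from the 12 immediate-early and heat-shock genes. Both factors were higher in cells with a higher share, in every library. Cebpb was at 129, 120, 64.3 and 103 CPM (WT, db/db 8w, db/db 16w, HFD) in cells with a share under 0.5%, and at 566, 510, 232 and 210 CPM in cells with 2% or more. Cebpd was at 224, 174, 212 and 144 CPM in the first group and at 1380, 823, 733 and 376 CPM in the second. In cells under 0.5%, the log2 ratios of Cebpd to WT were −0.36, −0.08 and −0.64, and those of Cebpb were −0.11, −1.01 and −0.33. For db/db 16w the ratios changed with the share. Cebpb was close to WT in cells with 0.5% to 1% (−0.05) and 1% to 2% (−0.04) and lower again at 2% or more (−1.29), and Cebpd was at 0.08, 0.20 and −0.91 in these groups. In HFD Cebpb was at −0.56, −0.33 and −1.43 and Cebpd at −0.68, −1.09 and −1.88, under WT in each group. In db/db 8w Cebpb was at 0.25, 0.69 and −0.15, and Cebpd at −0.57, −0.45 and −0.75. Over all stromal cells, 12 of the 12 immediate-early and heat-shock genes were at least 2-fold lower in db/db 16w, 6 in HFD and 0 in db/db 8w. Of all genes, 18.1%, 9.34% and 4.41% were. In Col15a1/Col4a1 cells 11, 4 and 0 were lower, beside 12.9%, 5.45% and 3.80% of all genes. In HFD 1 was higher in both classes, beside 15.7% and 15.8%. The medians were −1.53, −0.28 and −0.21 in Col15a1/Col4a1 cells, against −1.70, −0.98 and −0.42 over all stromal cells. The part of handling or of the tissue itself in the shares of immediate-early and heat-shock UMIs was not tested.

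**Figure D4:**
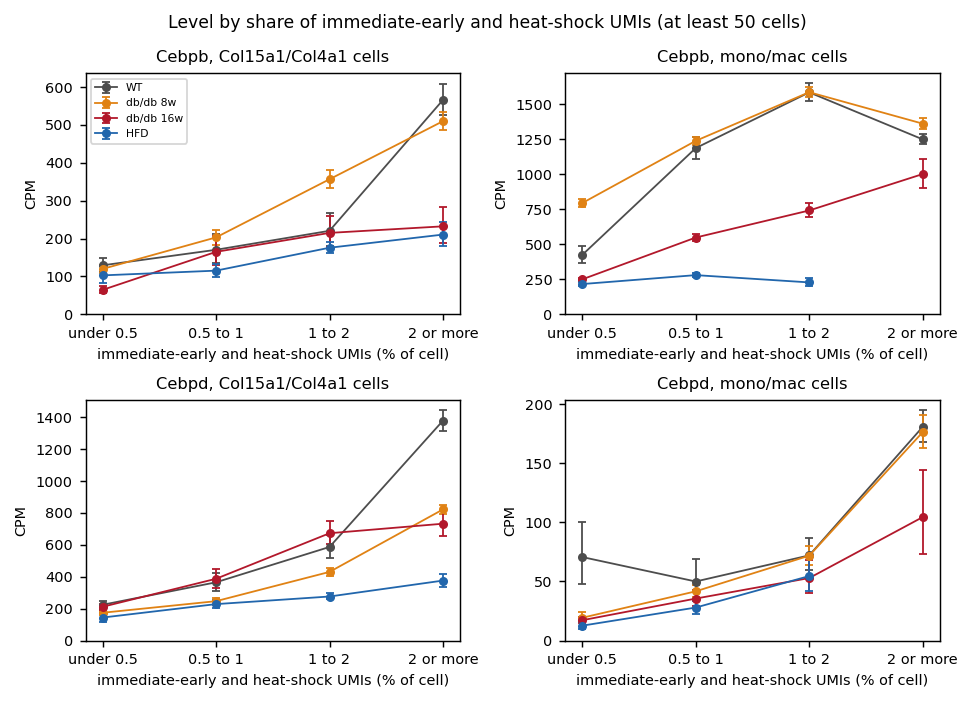
CPM of Cebpb and Cebpd in Col15a1/Col4a1 and in mono/mac cells grouped by the percent of a cell's UMIs from 12 immediate-early and heat-shock genes, with 1 line per library, groups of at least 50 cells only and exact Poisson 95% intervals as bars. In Col15a1/Col4a1 cells both genes climb from left to right in each library, Cebpd from 224 to 1380 CPM in WT and from 144 to 376 CPM in HFD.

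The same genes were read in monocytes and macrophages, the most numerous immune cells (882, 2706, 2297 and 1590 cells). They were not split into subsets here. A level over all mono/mac cells therefore mixes the level within a subset with the share of each subset. C/EBPβ and C/EBPα are standing factors of myeloid cells. Cebpb was at 1266 CPM in WT and 1242 in db/db 8w, but at 349 in db/db 16w and 238 in HFD, with log2 ratios of −0.03 (−0.06 to 0.01), −1.86 (−1.91 to −1.81) and −2.41 (−2.47 to −2.35). Cebpd was at 134, 69.4, 24.5 and 21.95 CPM, with ratios of −0.94, −2.45 and −2.61. The db/db 16w and HFD libraries thus had the lowest levels of both genes, as in the stroma. The immediate-early and heat-shock sum was also low in them, at 4114 and 5464 CPM against 27207 in WT and 13006 in db/db 8w. In mono/mac cells with a share of 0.5% to 1%, Cebpb was at 1187, 1239, 548 and 280 CPM, with log2 ratios to WT of 0.06, −1.12 and −2.09. Cebpd in the same cells was at 49.9, 41.6, 35.5 and 27.9 CPM, with ratios of −0.26, −0.49 and −0.84, smaller than over all mono/mac cells. The ratios changed from group to group: in cells under 0.5%, the Cebpb ratios of db/db 16w and HFD were −0.77 and −0.97, those of Cebpd −2.04 and −2.49. Cebpa was at 68.2, 52.6, 53.7 and 65.8 CPM. Its log2 ratios were −0.38 (−0.54 to −0.21), −0.35 (−0.51 to −0.18) and −0.05 (−0.22 to 0.12).

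Pparg, which macrophages use in lipid handling, was at 10.3 CPM in WT mono/mac cells (68 UMIs), 31.0 in db/db 8w (586 UMIs), 20.05 in db/db 16w (345 UMIs) and 52.2 in HFD (604 UMIs). The log2 ratios were 1.59 (1.22 to 1.97), 0.96 (0.58 to 1.35) and 2.34 (1.97 to 2.72), and 1.56, 0.93 and 2.24 with the estimated carry-over from other cells taken off. Over all mono/mac cells, Pparg was therefore higher in each obese library too, in an order unlike that of the stroma. The part of subset shares in this difference was not tested. The carry-over estimates in mono/mac cells came from stromal and endothelial donors, but in WT from stromal cells alone. The correction was thus not alike in WT and the obese libraries, for Pparg as well. Ebf1 was at 12.9, 11.7, 0.407 and 11.8 CPM, and its carry-over was estimated at 17.6, 8.29, 0.757 and 9.35 CPM (WT, db/db 8w, db/db 16w, HFD). Ebf2 was at 4.86, 2.06, 0.0581 and 3.28 CPM, against 4.45, 1.68, 0.0635 and 1.53 CPM of carry-over. The estimate thus covered all or most of these levels, except that it left more than it covered of Ebf2 in HFD. Zfp423 held at most 5 UMIs in a library and Prdm16 at most 17. Of the 7 genes that passed the filter in db/db 8w, 1 was at least 2-fold higher (Pparg) and 1 lower (Ebf2), beside 7.59% and 7.84% of all genes. Of 6 in db/db 16w, 0 were higher and 4 lower (Cebpb, Cebpd, Ebf1 and Ebf2), beside 19.8% and 26.0%, and of 6 in HFD, 1 was higher (Pparg) and 2 lower (Cebpb and Cebpd), beside 16.5% and 11.3%. The low calls of Ebf1 and Ebf2 compare levels that carry-over covered in WT and db/db 16w wholly or for the most part, the Ebf2 ratio in db/db 16w being −6.39 (−11.73 to −3.81) on 1 UMI.

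Among the other lineages, endothelial cells had the most Pparg and Prdm16 of any lineage with at least 50 cells. Pparg was at 407 CPM in db/db 8w (83 cells), 304 in db/db 16w (1286 cells) and 240 in HFD (1188 cells), and Prdm16 at 53.6, 28.2 and 28.5 CPM, while WT held 18 endothelial cells and was not used. Over lineages Pparg thus ran from endothelial cells (240 to 407 CPM) to mono/mac (10.3 to 52.2) and stromal cells (6.94 to 44.1), whose ranges over libraries overlap, and then to T/NK cells, at 18.0 CPM in db/db 8w and 0 UMIs in db/db 16w. Ebf1 was highest in B cells and stroma: the 81 B cells of db/db 8w held 917 CPM (762 to 1093), above the stromal cells of that library (704 CPM), ahead of endothelial cells (237 to 407 CPM). Cebpb was highest in the 76 neutrophils of db/db 8w, at 3791 CPM, then in mono/mac cells (238 to 1266 CPM), with stromal (110.5 to 512), endothelial (68.6 to 218) and T/NK (53.7 to 180) ranges overlapping. Cebpd led in stroma (299 to 940 CPM), overlapping endothelial cells (119 to 344) and the neutrophils (421). Cebpa was highest in mono/mac cells (52.6 to 68.2 CPM), above stroma (23.0 to 27.5) and endothelium (5.996 to 23.6). Zfp423 was at 7.79 to 21.4 CPM in endothelial and 7.86 to 11.55 in stromal cells, on 4 to 81 endothelial UMIs, and Ebf2 led in stroma (122 to 232.5 CPM against 1.199 to 16.1 in endothelium).

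**Figure D5:**
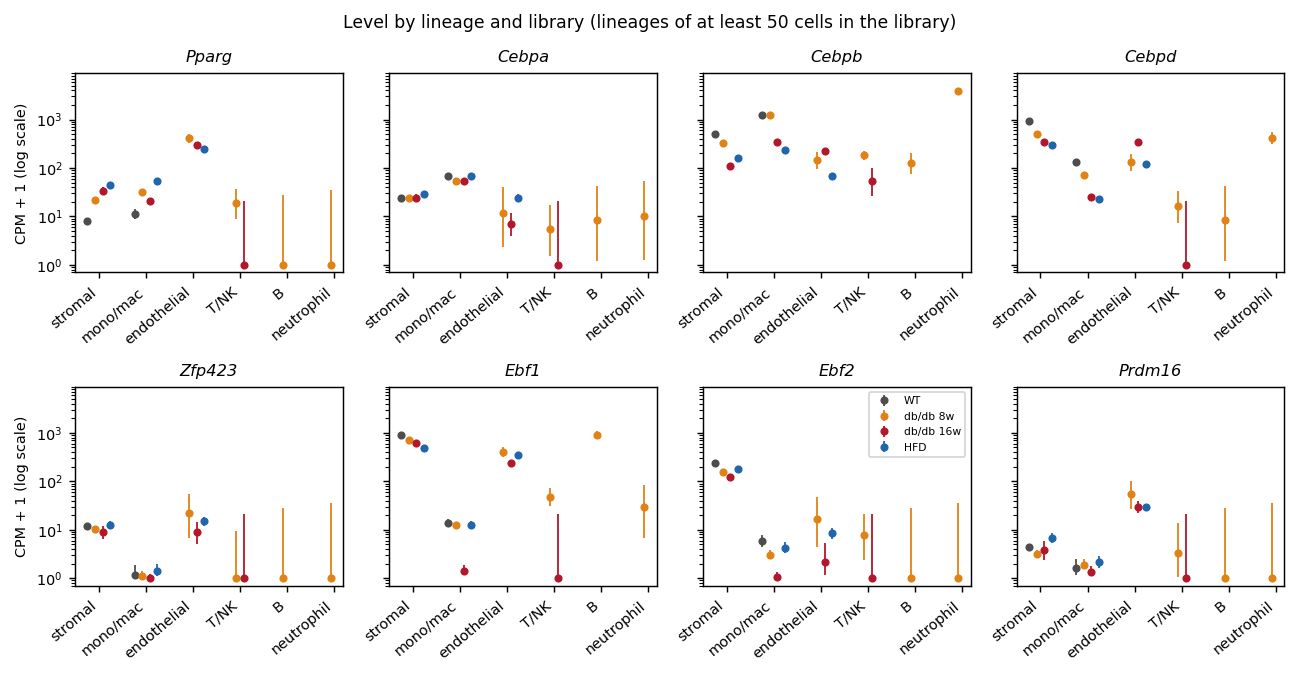
CPM + 1 on a log axis for each gene by lineage and library, for lineages with at least 50 cells, with exact Poisson 95% intervals as bars. Endothelial cells lead for Pparg (240 to 407 CPM), the db/db 8w neutrophils for Cebpb (3791 CPM) and stromal cells for Ebf2 (122 to 232.5 CPM).

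The genes whose levels ran most like each factor were found over 15 lineage-by-library sums among 10270 genes, by Pearson's r of log2(CPM + 10). The points share libraries and depth, and r is given as a description. Pparg ran most like Tmcc3 (r = 0.97), Mrtfb and Myo10 (0.96 each), and Prdm16 like Magi1, Caskin2 and Galnt18 (0.99 each). Ebf2 ran most like Lynx1, Meis2 and Zfhx4 (0.99 each), and Zfp423 like Nbea (0.99), Akap12 and Dchs1 (0.98 each). Cebpb ran most like Ptgs2 (0.90), an immediate-early type gene of prostaglandin synthesis, Ccr1 and Clec4n (0.88 each), and Cebpd like Acap3 (0.95). Cebpa ran most like Grn, Asah1 and Igf1 (0.96 each), and Ebf1 like Sox4 (0.93), B230354K17Rik and Cd34 (0.91 each).

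Genes known as targets of PPARγ were read in the same stromal cells. Of the 23 on the list, 7 were at least 2-fold higher and 1 lower in db/db 8w (median log2 ratio 0.57), 14 of the 22 that passed the filter were higher and 2 lower in db/db 16w (1.31), and 15 of 23 were higher and 0 lower in HFD (1.75). The median over all genes was 0.03, −0.07 and 0.10, and 9.39%, 14.8% and 15.7% of all genes were at least 2-fold higher and 4.41%, 18.1% and 9.34% lower. Fabp4, a fatty acid carrier, was at 209 CPM in WT and 2035, 9177 and 4388 in the obese libraries (log2 ratios 3.28, 5.45 and 4.39). Plin1, which coats lipid droplets, had ratios of 1.92, 3.22 and 3.46 on 32 to 97 UMIs, and the glycerol channel Aqp7 had 2.10, 3.60 and 4.56 on 12 to 66 UMIs. Gpihbp1, a protein of capillary endothelium, was at 0.344 CPM in WT and 4.06, 28.4 and 31.9 in the obese libraries. Carry-over of Gpihbp1 was estimated at 10.3, 46.0 and 39.1 CPM and so covered all of it, and that of Aqp7, 1.405, 3.93 and 7.49 CPM, covered most of its 1.47, 4.16 and 8.11 CPM. The carry-over of Fabp4 came to 229, 754 and 1069 CPM and left most of its level. The summed RNA of 7 mature adipocyte genes, all detected in every library, was also higher. It was at 35.9 CPM in WT stromal cells and 78.3, 289.5 and 159 in the obese libraries. Car3 alone was at 22.6 CPM in WT and 59.05, 241 and 87.7. Of the genes that passed the filter, 3 of 7, 3 of 5 and 5 of 7 were at least 2-fold higher. Cidec was at 1.405 CPM in WT and 0.925 in db/db 16w, and Ucp1 at 0.201 and 0.231. In Col15a1/Col4a1 cells of db/db 8w 0 of 5 were higher, beside 9.46% of all genes (median −0.28). The part of this RNA in the target counts was not tested.

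In Col15a1/Col4a1 cells alone the targets differed less, as Pparg did. There 2 of 20 were higher and 1 lower in db/db 8w (median −0.04, all genes 0.11), 7 of 19 higher and 2 lower in db/db 16w (0.54, all genes 0.05), and 13 of 23 higher and 2 lower in HFD (1.05, all genes 0.18). Of all genes, 9.46%, 15.9% and 15.8% were at least 2-fold higher and 3.80%, 12.9% and 5.45% lower. Fabp4 remained higher, with 1331 CPM in WT and 3902, 9788 and 5091 in the obese libraries (1.55, 2.88 and 1.94). Lpl, a lipoprotein lipase chosen after its values were seen, was at 3715 CPM in WT and 3651, 3403 and 3820 in these cells, although over all stromal cells it was 1380, 2049, 3256 and 3314 CPM.

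Target levels were also higher in the cells that held a late factor. With each stromal cell thinned to 2000 UMIs, the 23 targets summed to 5684 CPM in the 49 WT cells with a Pparg UMI and 2087 in the cells without, 9124 against 4441 in db/db 8w, 14116 against 12068 in db/db 16w and 11396 against 9066 in HFD. Within Col15a1/Col4a1 cells the gap was smaller but of the same sign: 9833 against 5836 in WT (21 cells with a UMI), 11869 against 8353, 14345 against 12788 and 11672 against 10718. Cebpa gave the same sign in Col15a1/Col4a1 cells, 8250 against 5877 in WT, 10550 against 8384, 18780 against 12696 and 14718 against 10598. For Ebf2, the commitment factor, the level was no higher with a UMI: 6000 against 6043 CPM in WT, 8464 against 8536 in db/db 8w, 12233 against 13102 in db/db 16w and 10109 against 11029 in HFD. Endothelial RNA holds both Pparg and the targets, which summed to 43322 CPM in db/db 8w endothelial cells. Its carry-over was not taken off here, and its part in these gaps was not tested. Cells of 1 library are not replicates, and these contrasts describe each library only.

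Further regulators of adipogenesis showed no shared direction. Of 19 other activators, 2 were higher and 1 lower in db/db 8w stromal cells, 2 and 6 of 18 in db/db 16w, and 2 and 2 of 18 in HFD, with medians of −0.07, −0.15 and −0.06. Of all genes in these cells, 9.39%, 14.8% and 15.7% were at least 2-fold higher and 4.41%, 18.1% and 9.34% lower. Ppargc1a, the coactivator of mitochondrial genes, was higher in all 3 (log2 ratios 3.14, 2.20 and 3.31 from 1.004 CPM in WT), and so was Egr2, an early activator that is itself an immediate-early gene (2.20, 1.28 and 3.97 from 5.99 CPM). Both were also higher in Col15a1/Col4a1 cells, Ppargc1a by 2.91, 1.24 (−0.09 to 2.74) and 2.39 on 7 WT UMIs, and Egr2 by 2.41, 1.16 and 3.88. Egr2 thus ran opposite to Cebpb and Cebpd in db/db 16w and HFD. Of the repressors, 2 of 14 were higher and 1 lower in db/db 8w, 2 and 5 of 14 in db/db 16w, and 3 and 0 of 15 in HFD, with medians of −0.16, −0.43 and 0.19. Dlk1, the classical inhibitor of preadipocyte differentiation, was at 0.430 CPM in WT and 2.37, 3.47 and 0.983 in the obese libraries on 8 to 66 UMIs, and its HFD interval (−0.25 to 2.52) held 0.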

How the data were processed

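Single cells of the SVF of BAT were measured in 4 libraries of 1 group each. The deposited matrices hold UMI counts for each gene in each called barcode, which the authors made from 10x Genomics libraries on mm10 before any quality filter. The submitters' processing notes name Cell Ranger 7.1.0 and the matrix headers name 6.0.0, and whether intronic reads were counted was not given in the sources used here, which matters for long genes such as Ebf1 and Prdm16. Barcodes were kept between 250 and 6000 genes, between 500 and 30000 UMIs, and below a mitochondrial share of 15%. A lineage needed at least 3 UMIs of its panel and 75% of the UMIs over 7 panels, and a stromal subset at least 3 UMIs and 60% over 4 panels. No doublet caller was run. The 75% rule left unassigned the barcodes in which no lineage reached that share, but barcodes with a smaller part from other lineages stayed. None of the 7 panels was for adipocytes.

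UMIs were summed per class and library and divided by all UMIs of the class (CPM). Levels carry exact Poisson, shares exact Clopper-Pearson and ratios exact conditional binomial 95% intervals, computed with scipy 1.17.1, numpy 2.4.6 and pandas 2.3.3 in Python 3.11.15. A gene was called when it was at least 2-fold apart among genes with at least 20 UMIs over both libraries. The ratios with their intervals, the thinning and the lineage gate were tried on simulated counts. These counts held Poisson error alone, without the spread of mice or preparations, and the 2-fold calls were not simulated. Shares were read after thinning each cell to 1000 UMIs, which left out 64 stromal cells of WT, 1 of HFD, and 823 and 98 of db/db 8w and db/db 16w. Carry-over was estimated by scaling a donor lineage's level by the ratio of its own marker genes in the receiving and the donor cells. Named genes were the 8 factors, the genes of each further list past 2-fold in 1 direction in all 3 obese libraries (at most 4 per list), and the 3 genes most like each factor (for Cebpd the nearest alone, the rest being not reported here), and Ddit3 was not analysed here. In the subset comparison, planned over 4 libraries, 3 were used. The 8 genes, lists, gates and alternatives were chosen with earlier results of these data known. The single-subset, stress-share and carry-over alternatives were added after seeing the data.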

Additional observations from a re-analysis of the deposited data

Results flagged for a closer look

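Some ratios had opposite signs in different libraries, and none of these differences was tested, since each group held 1 library. The difference of Cebpb between Col15a1/Col4a1 and Pi16/Dpp4 stromal cells was −0.43 in WT but 0.21 in db/db 8w and 0.19 in HFD on the log2 scale. The HFD interval held 0. The log2 ratio of Ebf2 to WT in Col15a1/Col4a1 cells was −0.27 in both db/db 8w and db/db 16w but 0.17 in HFD, and in Pi16/Dpp4 cells it was −0.14 and 0.43 for db/db 8w and HFD. The db/db 16w library was not read in Pi16/Dpp4 cells, of which it held 24. Over all stromal cells, where the share of the pools also enters, Ebf2 was lower in all 3. The ratio of Prdm16 in stromal cells was −0.68 in db/db 8w and −0.31 in db/db 16w but 0.75 in HFD, on 60, 12 and 47 UMIs. The db/db 16w interval held 0, and carry-over was not taken off these ratios.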

How the results depend on the processing

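No paired analysis was possible because each group holds 1 library. Of 60 counts of genes past 2-fold in stromal cells under the alternatives, 57 stayed within a factor of 1.5 of the main count. With the WT mix of subsets the count of higher genes went from 1 to 0 in db/db 8w and from 1 to 2 in HFD, and with the mean of each cell's CPM the count of lower genes in db/db 8w went from 0 to 1. The WT mix used 2 of the stromal subsets in db/db 16w, which cover 30.9% of WT stromal cells. All 4 counts of the subset comparison were unchanged under a stricter gate and without the mitochondrial limit. No called ratio over all stromal cells changed sign. Over 9 alternatives the Pparg ratio had a range of 0.64 to 1.75 (db/db 8w), 1.27 to 2.38 (db/db 16w) and 1.37 to 2.78 (HFD), Cebpb from −3.00 to −2.09 in db/db 16w and −1.89 to −1.41 in HFD, and Cebpd from −2.17 to −1.24 and −1.85 to −1.24. Of the values not called, Ebf2 in HFD turned from −0.39 to 0.30 with the WT mix. With carry-over taken off, the Pparg ratio in Pi16/Dpp4 cells went from 1.41 to −5.95 in HFD, where 0.0502 CPM was left, and from 0.63 to −1.30 in db/db 8w, and the HFD call in Col15a1/Col4a1 cells was lost (0.78). The Cebpd ratio of db/db 16w in Col15a1/Col4a1 cells went from −1.01 to 0.08 and 0.20 in cells with 0.5% to 1% and 1% to 2% of immediate-early and heat-shock UMIs. Depth limits Prdm16 and Zfp423 most, with 12 and 34 UMIs in db/db 16w stromal cells. Shares of cells moved with the depth they were thinned to, in 61 of 64 values, and are comparable at 1 depth only.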

Other observations

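The barcodes that met no lineage gate held the 8 factors at levels between those of the gated lineages. Pparg was at 7.92 CPM in the 760 unassigned barcodes of WT, 26.9 in the 2593 of db/db 8w, 50.6 in the 975 of db/db 16w and 110.5 in the 1143 of HFD, so that here too WT was the lowest. Cebpb was at 903, 828, 272 and 162 CPM and Cebpd at 224, 183.5, 97.0 and 94.6 CPM in the same order. Ebf2 was at 33.2, 41.6, 15.8 and 42.7 CPM and Prdm16 at 0.609, 2.76, 3.87 and 13.0 CPM. These barcodes may hold several lineages, and their makeup was not analysed further. The endothelial marker Cldn5 was at 2.74, 27.1, 208 and 518 CPM in them (WT, db/db 8w, db/db 16w, HFD). Endothelial cells held the most Pparg and Prdm16, and the part of endothelial RNA in these levels was not tested.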
